A study of Sus scrofa with 32 samples.

Results

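Perivascular adipose tissue (PVAT) taken from beside the left anterior descending coronary artery (LAD) was compared with descending thoracic aorta (TA) in lean juvenile Ossabaw miniature pigs. The arrays were those labelled lean and PVAT or lean and TA, paired by the pig number in their titles, which gave 10 of the 32 arrays of the series: 5 PVAT and 5 TA arrays, 1 of each from pigs 48, 56, 73, 80 and 86. All 14327 probe sets of the deposited table were used. Pig 63, the 6th lean pig, had a PVAT but no TA array and entered no pair. The lean pigs ate a commercial low fat diet for 16 weeks, starting at 5 to 6 weeks of age, and were 22 weeks old in the study's design text. The obese pigs, used here only for a side by side reading, were given food rich in fat, cholesterol and high fructose corn syrup over the same time and were of the same age. Replicates were separate animals.

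Both tissues were taken whole, so every value is a sum over the cell types present, and fewer cells of a type cannot be told apart from less RNA of a gene in each cell. The fat came from the surface of the heart, not from around the aorta. The arteries had been dissected free of perivascular fat and excess adventitia, and fat and arteries were extracted with different RNA kits, so tissue and kit cannot be told apart. Affymetrix porcine arrays were used, and values are the authors' log2 signals per probe set. A gene is represented here by its brightest probe set over the 10 arrays. Every probe set in the table reached 6.64 (the log2 of 100) in 11 or more of the 32 arrays. Below that level only log2 differences are given, without a fold.

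PVAT is a fat depot that lies directly on the vessel wall. Its adipocytes store triglyceride, release fatty acids and secrete hormones and vasoactive peptides toward the artery. On the heart it shares its microcirculation with the heart muscle beneath it and is crossed by the cardiac nerves. The aortic wall is built mainly of contractile smooth muscle cells, which lie between elastic lamellae that they synthesize and carry the channels and receptors that set vascular tone.

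The 2 tissues were far apart in every pig. Correlations between arrays were 0.905 to 0.985 within a tissue and 0.781 to 0.832 between tissues, and the first principal component held 70.5% of the variance. Array medians ran from 8.32 to 8.56 in PVAT and from 8.37 to 8.52 in TA. The 28S/18S ratio, a measure of RNA integrity, was lower in PVAT, at 1.04 ± 0.156 against 1.378 ± 0.147 in TA (SD, n = 5 each). The PVAT library of pig 73 stood apart from the other 4 in its heart muscle genes, which is taken up beside each result it touches. The number of arrays limits the precision.

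PVAT and TA differed in about as many genes upward as downward. In a limma fit with the pig as a block, 3197 of 14327 probe sets (22.3%) were higher and 3919 (27.4%) were lower in PVAT at a Benjamini-Hochberg adjusted p under 0.05, together 49.7%. Of these, 1164 (8.12%) were higher and 956 (6.67%) were lower by at least 1 log2 unit. All 5 PVAT arrays lay above all 5 TA arrays for 2256 probe sets (15.7%) and below them for 2915 (20.3%). Counted over 8808 genes with 1 probe set each, 24.6% were higher and 25.4% lower, and the counts for gene lists below are to be read against these 2 shares. The median difference over all genes was -0.01. With the 28S/18S ratio as a covariate beside the pig, which leaves fewer degrees of freedom and a term that tracks the tissue, 1245 probe sets were higher and 1402 lower.

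**Figure D1:**
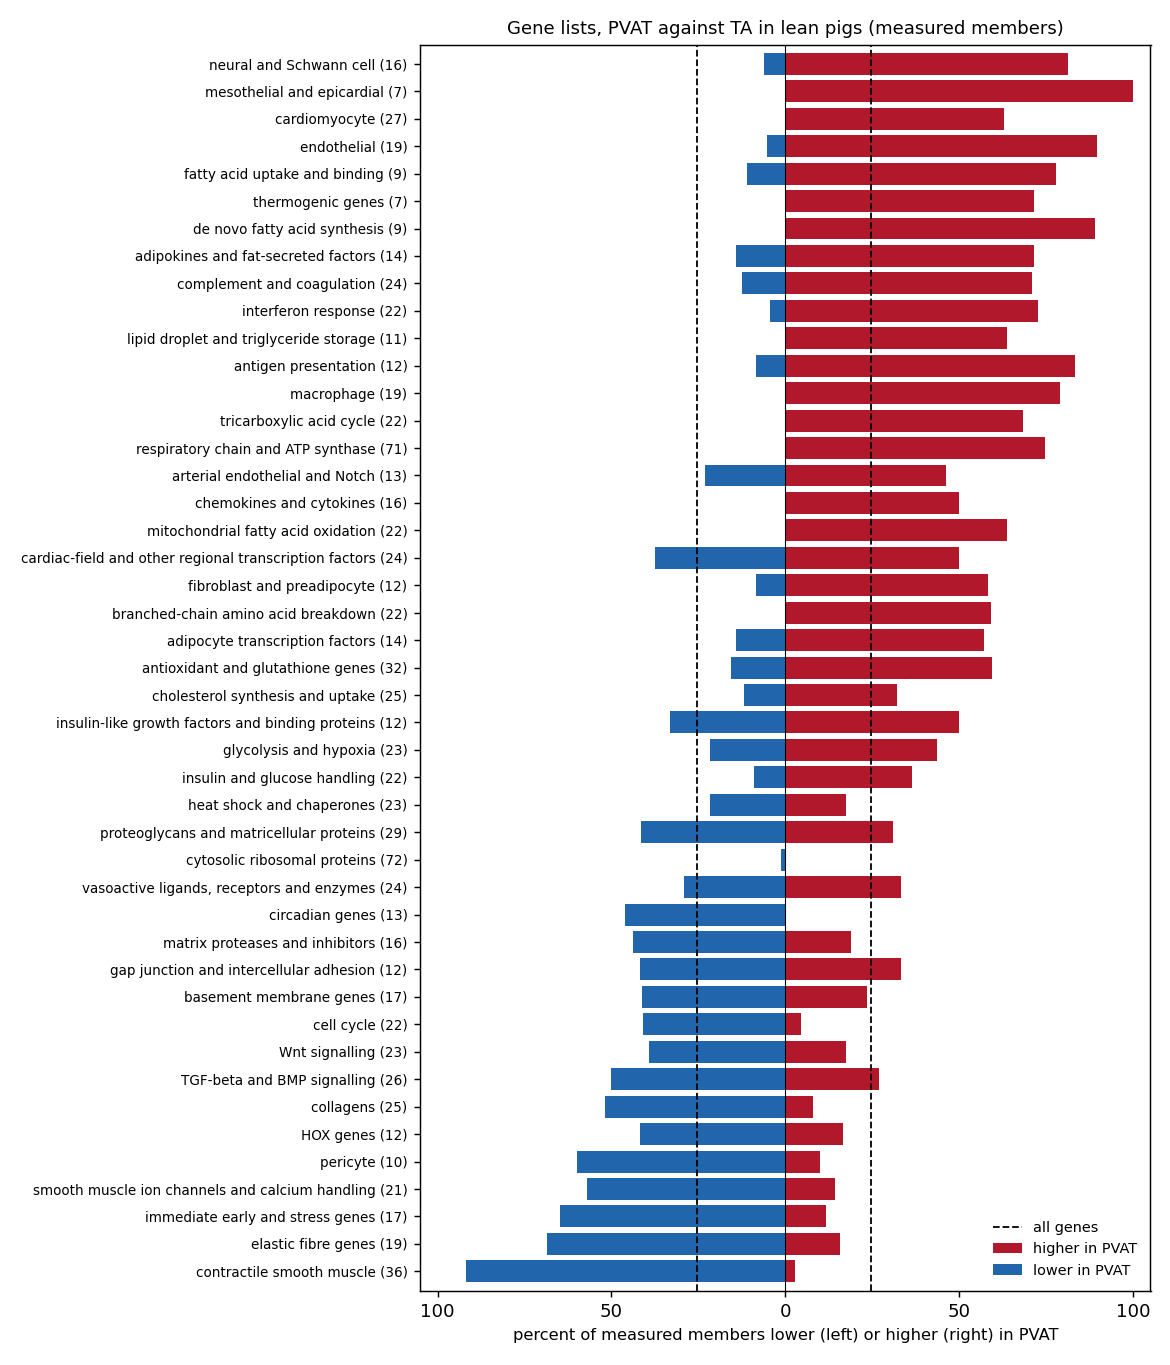
For each gene list with at least 7 measured members, the percent of members higher (red, right) and lower (blue, left) in PVAT than in TA (limma adjusted p under 0.05, 5 lean pigs), sorted by the median difference, with the number of measured members in brackets. Dashed lines mark the shares over all genes, 24.6% higher and 25.4% lower. Nerve, epicardial, heart muscle, endothelial and fat lists lie at the top and contractile smooth muscle at the bottom.

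Fat storage and fat synthesis genes were higher in PVAT. Of 20 listed genes of lipid droplets and triglyceride storage 11 were measured. Of these 7 were higher and 0 lower, with a median difference of 0.96. The adipocyte markers PLIN1 and CIDEC had no probe set under their symbols. DGAT2, which makes triglyceride from diglyceride, had log2 signals of 12.45, 11.72, 12.73, 10.66 and 10.65 in PVAT and 6.61, 6.10, 6.24, 5.78 and 6.21 in TA, in the order of pigs 48, 56, 73, 80 and 86 that is kept throughout. The tissues did not overlap, and the PVAT arrays of pigs 80 and 86 were the lowest of the 5. The log2 difference was 5.45 (SE 0.29, limma adjusted p = 3.12e-05). CIDEA, a lipid droplet protein also used as a marker of thermogenic fat, averaged 10.81 ± 0.95 in PVAT and 6.47 ± 0.14 in TA, a difference of 4.35 (SE 0.34). The lipid droplet coat gene PLIN2 read 7.52 ± 0.20 in PVAT and 7.34 ± 0.33 in TA and did not pass (adjusted p = 0.298). With the 28S/18S covariate 2 of the 11 storage genes passed, DGAT2 and CIDEA, with adjusted p values of 0.00349 and 0.0109.

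PPARG, the nuclear receptor that drives adipocyte differentiation, had 10.31, 9.52, 10.45, 8.45 and 8.06 in PVAT and 5.97, 5.38, 5.33, 4.72 and 5.26 in TA. All PVAT values lay above all TA values, again with pigs 80 and 86 lowest among the PVAT arrays. Its difference was 4.03 (SE 0.30, limma adjusted p = 0.000115). Of 14 adipocyte transcription factors 8 were higher and 2 lower. EBF3, an early B cell factor, was higher by 3.38 and the retinoid receptor RXRG by 2.79, which in PVAT spanned only 8.48 to 8.82. The 2 lower members were ESRRG, an estrogen-related receptor, by -2.16 (SE 0.39), and KLF15, a zinc finger factor, by -0.46, a call lost without pig 48, 56, 80 or 86 (adjusted p values of 0.0664 to 0.0733).

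Enzymes that take up fatty acids and those that make them were both higher. LPL, the lipase that frees fatty acids from circulating lipoproteins, had 13.63, 13.23, 13.58, 12.93 and 12.25 in PVAT and 8.44, 5.96, 7.12, 7.11 and 7.26 in TA. That is a difference of 5.95 (SE 0.33), or 61.7-fold, with limma adjusted p = 3.73e-05 and no overlap. Of 9 measured genes of fatty acid uptake and binding 7 were higher and 1 lower, with 0 lower when any 1 pig was left out. FABP3 was 18.9-fold higher (12.56 ± 0.27 in PVAT, 8.32 ± 0.23 in TA). FABP4, the adipocyte fatty acid binding protein, was 6.74-fold higher, at 13.33 ± 0.59 in PVAT and 10.58 ± 0.47 in TA. FABP3 also belongs to heart muscle, and its PVAT level in pig 73 was 12.52, beside 12.12 to 12.79 in the other PVAT arrays. Of 9 fatty acid synthesis genes 8 were higher and 0 lower, among them ELOVL6 at 9.74-fold, FASN, fatty acid synthase, at 9.41-fold and the desaturase SCD at 8.48-fold. FASN read 12.98, 12.07, 12.93, 11.79 and 11.31 in PVAT and 9.23, 8.37, 8.59, 9.52 and 9.20 in TA. All 5 pigs went the same way, with the smallest steps in pigs 80 and 86. The other probe sets gave smaller differences, 1.10 and 0.77 for FASN and 2.14 to 2.37 for ELOVL6, and all of them passed. With the 28S/18S covariate 3 of the 9 synthesis genes were higher, and 4 in a fit to the 3 pigs of 1 sacrifice group.

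Genes that break triglyceride down did not all follow. Of 5 measured members 4 were higher and 1 lower. LIPE, hormone-sensitive lipase, was higher by 2.74 (SE 0.31), the triglyceride lipase PNPLA2 by 1.56 or 2.95-fold, and its coactivator ABHD5 by 1.49. MGLL, which cleaves the last fatty acid from glycerol, was the exception, with 11.11, 10.83, 11.03, 11.02 and 10.72 in PVAT and 12.11, 12.23, 12.48, 12.33 and 12.39 in TA. Every PVAT array lay below every TA array, at a difference of -1.37 (SE 0.11, limma adjusted p = 0.000144), and a second probe set gave -1.28.

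In glucose handling 8 of 22 genes were higher and 2 lower. GPD1, which turns a glycolytic intermediate into the glycerol backbone of triglyceride, was 10.1-fold higher, the hexokinase HK2 was higher by 3.23 and pyruvate carboxylase, PC, was 7.73-fold higher. SLC2A4, the insulin-responsive glucose transporter, read 7.20 ± 0.16 in PVAT and 7.32 ± 0.08 in TA and did not pass (adjusted p = 0.33). The insulin receptor INSR was lower, at -0.42, a call lost without pig 56, 80 or 86 (adjusted p values of 0.0538 to 0.0784).

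Among 14 measured secreted factors of fat, 10 were higher and 2 lower. AGT, angiotensinogen, the precursor of the pressor peptide angiotensin, was the largest. It had 13.56, 12.56, 13.70, 12.69 and 12.69 in PVAT and 7.29, 6.74, 6.42, 6.21 and 7.30 in TA, a difference of 6.25 (SE 0.26) or 76.0-fold (limma adjusted p = 1.56e-05), and its other probe set gave 3.67. APOD, a lipocalin that carries small lipids, was 24.5-fold higher and CFD, the complement protease adipsin, 7.49-fold higher. CFD varied little among the PVAT arrays, from 12.31 to 12.87. LEP, which encodes leptin, was 2.70-fold higher (8.78 ± 0.54 in PVAT, 7.35 ± 0.12 in TA). VEGFA, the endothelial growth factor, was 5.09-fold higher and ADM, the vasodilator peptide adrenomedullin, 2.61-fold higher.

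The probe set with the symbol ADIPOQ, adiponectin, read about the same in PVAT, TA and LAD, and whether it reports adiponectin could not be checked here. It had 10.80, 10.72, 10.89, 10.76 and 11.00 in PVAT and 10.68, 10.62, 10.53, 10.56 and 10.58 in TA. It averaged 10.56 ± 0.12 in LAD. The PVAT and TA ranges did not overlap, but the difference was only 0.24 (SE 0.08, limma adjusted p = 0.0497), and the call was lost without any 1 of the 5 pigs, with adjusted p values of 0.065 to 0.142. The factors lower in PVAT were INHBB, an activin subunit, at -2.31 (7.59 ± 0.29 in PVAT, 9.90 ± 0.42 in TA), and RARRES2, which encodes chemerin, at -0.81.

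**Figure D2:**
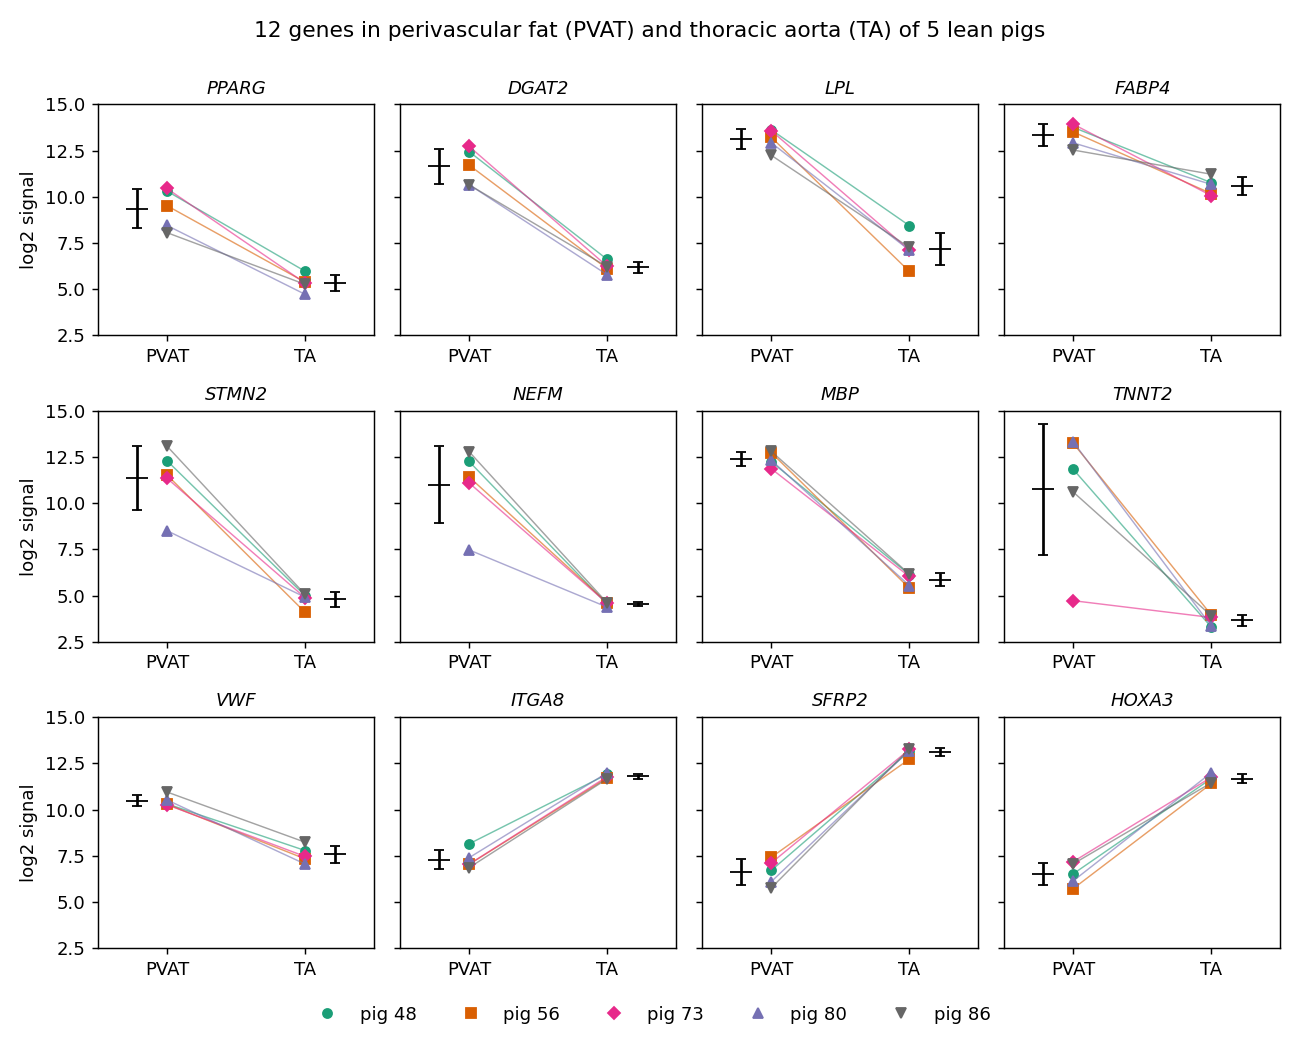
Log2 signal of 12 genes in the PVAT (left) and TA (right) array of each of 5 lean pigs, with lines joining the arrays of a pig and bars for mean ± SD (n = 5). PPARG, DGAT2 and LPL stand above their TA level in all pigs, TNNT2 is high in 4 PVAT arrays and at 4.72 in that of pig 73, NEFM is lowest in PVAT of pig 80 at 7.47, and ITGA8, SFRP2 and HOXA3 are low in every PVAT array.

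Heart muscle transcripts were abundant in 4 of the 5 PVAT libraries. TNNT2, cardiac troponin T, had 11.83, 13.24, 4.72, 13.31 and 10.60 in PVAT and 3.28, 3.94, 3.81, 3.34 and 3.90 in TA. The PVAT value of pig 73 was close to the aortic ones, and the other 4 lay at least 6 log2 units above them. The difference was 7.09 (SE 1.27, limma adjusted p = 0.00424), and 8.63 without pig 73. MYL2, the ventricular myosin light chain, had 13.32, 14.11, 5.71, 14.14 and 12.41 in PVAT, and 5.36 ± 0.14 in TA. Myoglobin, MB, had 5.66 in PVAT of pig 73 and 11.40 to 14.03 in the others, with 5.32 ± 0.16 in TA. The PVAT array of pig 63, which has no aortic partner, read 12.83 for TNNT2 and 13.41 for MB, like the 4 high libraries.

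Of 27 measured heart muscle genes 17 were higher in PVAT and 0 lower, with 21 higher once pig 73 was left out. The mean signal of the list was 10.37, 11.44, 6.88, 11.55 and 9.30 in PVAT and 7.52, 7.57, 7.61, 7.41 and 7.45 in TA. PVAT of pig 73 was thus the only one below its own aorta. ACTC1, cardiac actin, missed the threshold at a difference of 3.43 (adjusted p = 0.0646) and passed without pig 73 at 4.99 (adjusted p = 0.00164). With the 28S/18S covariate 3 of the 27 passed. Some muscle genes were as high in the aorta. CKM, muscle creatine kinase, read 12.37, 13.50, 5.42, 13.57 and 11.40 in PVAT and 11.77 ± 0.34 in TA, and TNNC1, slow troponin C, 12.25 ± 2.26 in PVAT and 12.87 ± 0.10 in TA. Neither passed, with adjusted p values of 0.744 and 0.554.

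Thermogenic and mitochondrial genes were higher in PVAT. The thermogenic and respiratory chain lists were lowest in PVAT of pig 73, the library that lacked heart muscle transcripts, and the tricarboxylic acid cycle and fatty acid oxidation lists in PVAT of pig 86. PPARGC1A, the coactivator that promotes mitochondrial biogenesis in brown fat and in heart, had 7.30, 9.77, 5.19, 8.80 and 7.13 in PVAT and 4.50, 4.35, 4.51, 4.27 and 4.19 in TA. PVAT exceeded TA in all pigs, by as little as 0.68 in pig 73 and as much as 5.42 in pig 56. Of 18 listed thermogenic genes just 7 were measured, of which 5 were higher and 0 lower. UCP1, the uncoupling protein of brown fat, was among the unmeasured ones, with no probe set under its symbol. COX7A1, a muscle and brown fat subunit of cytochrome oxidase, was 2.67-fold higher and SLC25A4, the ADP/ATP carrier, 2.42-fold higher. The call for COX7A1 was lost without pig 48 or pig 56 (adjusted p = 0.058 and 0.0754), and that for SLC25A4 without pig 48, 56, 80 or 86 (adjusted p values of 0.0774 to 0.129). Without single pigs, 2 to 5 of the 7 thermogenic genes were higher. With the 28S/18S covariate 2 of the 7 were higher, and 1 in a fit to the 3 pigs of 1 sacrifice group.

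Of 71 measured subunits of the respiratory chain and ATP synthase, 53 were higher and 0 lower, with a median difference of 0.75. Leaving out pig 73 gave 60 higher, and leaving out pig 56 gave 30. The list mean differed by 0.51, 1.25, 0.22, 1.34 and 0.47 in the 5 pigs, smallest in pig 73 and largest in pigs 56 and 80, the same 3 that were at the ends for the heart muscle list, at -0.72, 3.86 and 4.14. ATP5B, the catalytic subunit of ATP synthase, read 12.70, 13.17, 12.35, 13.16 and 12.61 in PVAT and 11.95, 11.65, 11.81, 11.73 and 11.63 in TA. Its difference of 1.05 (SE 0.16) was 2.07-fold without overlap, and PVAT of pig 73 was the lowest of the 5. In the tricarboxylic acid cycle list, which also holds the cytosolic malate dehydrogenase MDH1, 15 of 22 genes were higher and 0 lower. MDH1 was higher by 3.68-fold and CS, citrate synthase, by 1.69-fold. In mitochondrial fatty acid oxidation 14 of 22 were higher and 0 lower, among them the isomerase ECI1 at 2.58-fold. What part of these differences came from heart muscle in the fat samples was not tested. The list mean of the tricarboxylic acid cycle differed by 0.71, 1.23, 0.56, 1.12 and 0.39 in the 5 pigs and that of fatty acid oxidation by 0.64, 1.04, 0.41, 1.03 and 0.05, both least in pig 86.

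**Figure D3:**
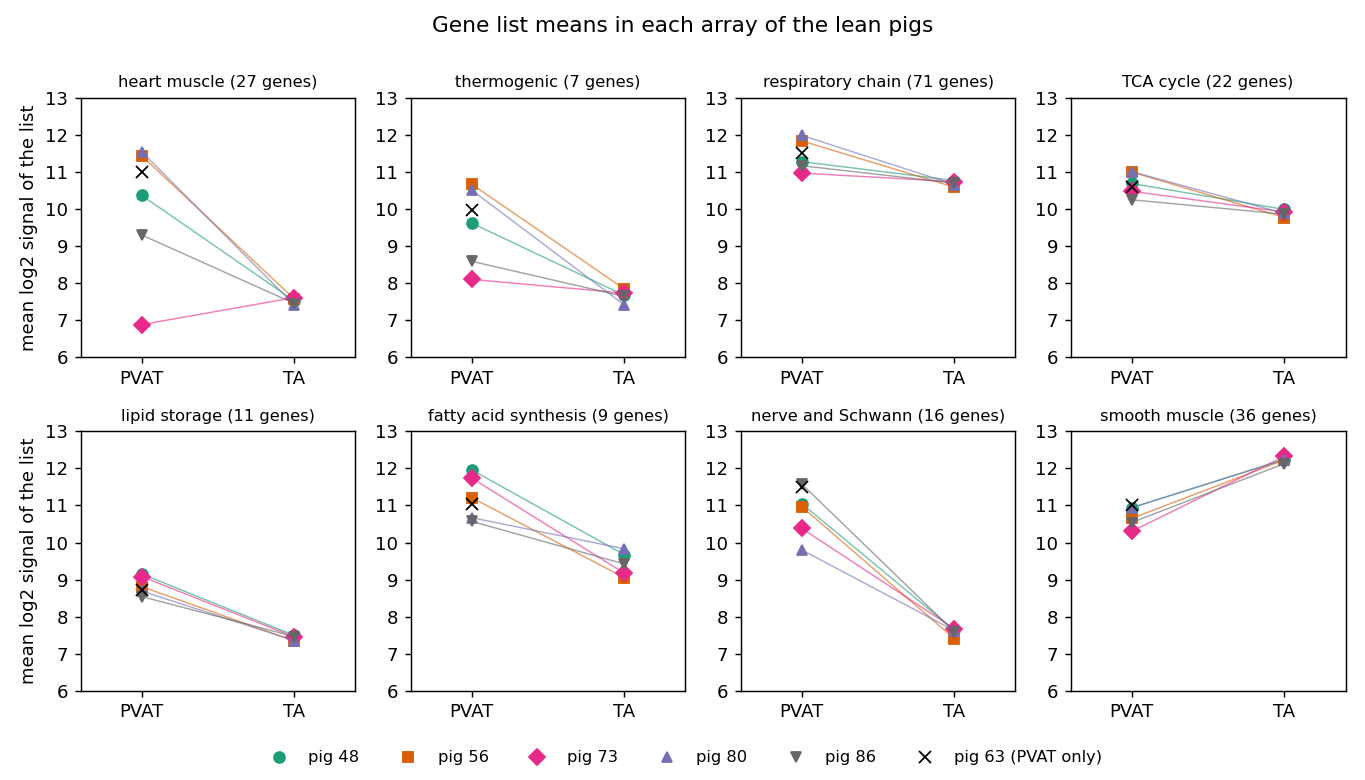
Mean log2 signal of 8 gene lists in the PVAT (left) and TA (right) array of each lean pig, with the unpaired PVAT array of pig 63 as a cross. Pig 73 has the lowest PVAT mean for heart muscle (6.88), thermogenic (8.10) and respiratory chain genes (10.97), but the second highest for lipid storage (9.08) and fatty acid synthesis (11.74), and smooth muscle genes are lower in PVAT in all 5 pigs.

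The fat storage and synthesis lists also varied between the PVAT samples. The mean of the lipid storage list was 9.15, 8.81, 9.08, 8.69 and 8.54 in PVAT and 7.34 to 7.49 in TA. The fatty acid synthesis list had 11.96, 11.21, 11.74, 10.67 and 10.57 in PVAT and 9.05 to 9.83 in TA, a difference of 2.16 to 2.57 in pigs 48, 56 and 73 but of 0.84 and 1.15 in pigs 80 and 86. Both lists were thus highest in PVAT of pigs 48 and 73 and lowest in that of pigs 80 and 86. A differing share of other cells in these samples cannot be told apart from a difference in the fat cells.

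Genes of nerve fibres gave some of the largest differences. STMN2, a microtubule regulator of growing axons, had 12.30, 11.53, 11.35, 8.51 and 13.09 in PVAT and 4.99, 4.09, 4.88, 4.91 and 5.06 in TA. The difference was 6.57 (SE 0.61, limma adjusted p = 0.000277), without overlap, and PVAT of pig 80 was the lowest by far. The neurofilament subunits NEFM and NEFL were higher by 6.47 and 5.84. NEFM had 12.26, 11.42, 11.10, 7.47 and 12.79 in PVAT and 4.53 ± 0.10 in TA. A probe set with the deposited symbol NEFH, which the platform annotation gives as DES, followed the neurofilaments, with 11.03, 9.79, 9.45, 5.78 and 12.15 in PVAT and 3.50 ± 0.23 in TA. NPY, the peptide that sympathetic nerves release with noradrenaline, was higher by 5.94 (SE 0.44), at 10.44, 9.68, 9.53, 7.34 and 11.98 in PVAT and 3.30, 4.01, 3.90, 3.20 and 4.87 in TA. SNAP25, part of the vesicle fusion machinery of nerve endings, was higher by 5.86. These 6 genes had their lowest PVAT value in pig 80 and their highest in pig 86.

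A myelin gene was as far from its aortic level but steadier among pigs. MBP, myelin basic protein, had 12.25, 12.74, 11.87, 12.33 and 12.81 in PVAT and 6.13, 5.40, 6.03, 5.54 and 6.16 in TA. That is a difference of 6.55 (SE 0.21, limma adjusted p = 1.04e-05), with PVAT values from 11.87 to 12.81 where those of NEFM ran from 7.47 to 12.79. The other 2 probe sets of MBP gave smaller differences, 1.08 and 1.16. ERBB3, the neuregulin receptor of Schwann cells, was 10.4-fold higher. Of 16 measured nerve and Schwann cell genes 13 were higher and 1 lower. The lower one was NCAM1, the neural cell adhesion molecule, at 8.57 ± 0.64 in PVAT and 10.14 ± 0.15 in TA, a difference of -1.57 (SE 0.23) that 3 further probe sets shared at -1.25 to -1.73. The Schwann cell factor SOX10 stayed between 6.39 and 6.82 in all 10 arrays and did not pass. With the 28S/18S covariate 9 of the 16 were higher and NCAM1 lower.

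Contractile smooth muscle genes were lower in PVAT almost throughout. Of 36 measured members 33 were lower and 1 higher, with a median difference of -1.79, and 31 were lower with the 28S/18S covariate. ITGA8, an integrin of smooth muscle, had 8.14, 7.03, 7.04, 7.39 and 6.85 in PVAT and 11.91, 11.71, 11.78, 11.99 and 11.66 in TA. The difference of -4.52 (SE 0.16, limma adjusted p = 1.45e-05) was 22.9-fold, without overlap, and 2 further probe sets gave -4.33 and -4.92. CNN1, calponin, had 11.41, 10.66, 10.21, 11.36 and 10.66 in PVAT and 13.35, 13.49, 13.46, 13.14 and 13.20 in TA, 5.54-fold lower. PPP1R14A, an inhibitor of myosin phosphatase, was 6.04-fold lower and MYOCD, the transcriptional coactivator of the contractile program, 5.29-fold lower. MYH11, smooth muscle myosin heavy chain, was lower, at -1.30 (13.04 ± 0.33 in PVAT, 14.33 ± 0.06 in TA), with a second probe set at -2.84. ACTA2, smooth muscle actin, was lower, at -0.89 (13.28 ± 0.24 in PVAT, 14.17 ± 0.02 in TA) and ACTG2 by -2.01. The 1 member higher in PVAT was DES, desmin, which heart and skeletal muscle share, with 10.51, 10.93, 8.53, 11.48 and 9.41 in PVAT and 7.96, 8.12, 8.89, 8.22 and 7.31 in TA. In pig 73 its PVAT value was below that of the aorta.

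Elastic fibre genes were lower as well, 13 of 19 with 3 higher. ELN, elastin, averaged 9.65 ± 0.21 in PVAT and 13.03 ± 0.45 in TA, without overlap, a difference of -3.38 (SE 0.18) or 10.4-fold (limma adjusted p = 3.04e-05). The latent TGF-beta binding protein LTBP2 was 7.13-fold lower, the crosslinking enzyme LOXL1 4.95-fold lower and the microfibril protein FBN2 3.99-fold lower. FBN1, the other fibrillin, was lower, at only -0.70 (12.14 ± 0.30 in PVAT, 12.83 ± 0.26 in TA). FBLN2, a fibulin of basement membranes and elastic fibres, went the other way and was 2.59-fold higher, with its other probe set at 0.65. The other 2 higher members, LOXL4 and MFAP5, were higher by 0.52 and 0.34. LOXL4 lost its call without pig 48, 73 or 80 and MFAP5 without pig 48, 73 or 86 (adjusted p values of 0.052 to 0.0887), and without pig 48 or pig 73 just 1 member was higher.

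Collagen genes went both ways. COL3A1, a fibrillar collagen, read 14.27, 14.19, 14.28, 14.01 and 14.23 in PVAT and 14.28, 14.20, 14.26, 14.26 and 14.22 in TA, so the tissues overlapped (difference -0.05, adjusted p = 0.638). COL1A1 was lower, at -0.53 (SE 0.14, limma adjusted p = 0.0172), and the call was lost without pig 48 or pig 86 (adjusted p = 0.0628 and 0.051). Its other probe sets gave -1.36 and -0.52, and both passed. Of 25 collagen genes 13 were lower and 2 higher, and 8 were lower without pig 86. The largest difference was that of COL4A5, a basement membrane chain, at -3.22 (8.85 ± 0.57 in PVAT, 12.08 ± 0.18 in TA), 9.35-fold lower. COL5A3 was 3.87-fold higher. Among basement membrane genes, NID1, nidogen, was 5.80-fold and LAMA2, the laminin chain of muscle and nerve, 4.52-fold higher, and LAMA5 was 2.86-fold lower. In this list 4 of 17 were higher and 7 lower.

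HAPLN1, which links hyaluronan to proteoglycans, had the smallest adjusted p of all probe sets, with 5.05, 4.97, 4.53, 4.59 and 4.80 in PVAT and 10.48, 10.30, 10.42, 9.96 and 10.15 in TA (difference -5.47, SE 0.11, limma adjusted p = 8.22e-06). All PVAT values were below 6.64. Biglycan, BGN, was 5.28-fold lower, and CYR61, a matricellular protein, 7.53-fold lower. The thrombospondins THBS4 and THBS1 were 13.3-fold and 4.46-fold higher in PVAT. Of 29 proteoglycans and matricellular genes 9 were higher and 12 lower. The secreted protease ADAMTS1 was 4.45-fold lower, with its other probe sets at -1.29 and -2.15.

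Ion channel genes were more often lower than higher in PVAT. Of 21 ion channel and calcium handling genes 12 were lower and 3 higher. KCNMA1, the pore of the large-conductance calcium-activated potassium channel, was 7.92-fold lower (8.39 ± 0.37 in PVAT, 11.37 ± 0.25 in TA), and its smooth muscle partner KCNMB1 was 7.21-fold lower. The calcium-activated chloride channel ANO1 was lower, at -2.68 and CACNB3, a calcium channel subunit, by -1.75. The inositol trisphosphate receptors split, with ITPR1 lower, at -1.63 (-0.18 and not passed with its other probe set), and ITPR2 higher by 1.48.

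Vasoactive genes as a list showed no common direction, with 8 of 24 higher and 7 lower. ADRA1B, an alpha-1 adrenergic receptor, had 6.34, 6.69, 6.15, 7.18 and 6.03 in PVAT and 10.87, 10.69, 10.95, 10.27 and 10.27 in TA, a difference of -4.13 (SE 0.24, limma adjusted p = 4.11e-05). The G protein regulator RGS5 was 4.84-fold lower, and PDE5A, which breaks down cyclic GMP, 2.97-fold lower. On the other side stood AGT and ADM, described above, the adrenomedullin coreceptor RAMP2 at 2.09 and DDAH1, which clears an inhibitor of nitric oxide synthase, at 1.21. NOS3, endothelial nitric oxide synthase, read 7.81 ± 0.18 in PVAT and 7.87 ± 0.14 in TA on its brightest probe set and did not pass, while another probe set passed at 1.52.

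Transcription factors that mark position in the body separated the tissues sharply. TCF21, an epicardial and fibroblast factor, had 10.73, 10.12, 11.24, 10.68 and 10.42 in PVAT and 6.15, 4.59, 4.82, 4.56 and 5.80 in TA. The difference was 5.46 (SE 0.30, limma adjusted p = 3.53e-05) with no overlap. The cardiac factors GATA4 and TBX5 were higher by 3.38 and 2.54. GATA4 had 8.43, 8.43, 8.64, 9.04 and 8.06 in PVAT and 5.14 ± 0.20 in TA, and PVAT of pig 73 was within the range of the others. TBX3 was higher by 2.95 (1.87 with its other probe set) and the nuclear receptor NR2F1 by 2.97. HOXA3, a homeobox gene of the embryonic neck and arch region, had 6.52, 5.72, 7.18, 6.14 and 7.06 in PVAT and 11.68, 11.41, 11.75, 12.00 and 11.45 in TA, a difference of -5.13 (SE 0.24). OSR1 was 16.9-fold lower and PRRX2 3.57-fold lower, and MSX1 was lower, at -1.48. The HOX cofactors split, with MEIS1 lower, at -1.92 and MEIS2 higher by 1.98. Of 24 regional factors 12 were higher and 9 lower, and of 12 HOX genes and cofactors 2 were higher and 5 lower.

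Of 17 listed mesothelial and epicardial genes 7 were measured, and all 7 were higher in PVAT. MSLN, UPK3B and WT1 were among those with no probe set under their symbols. In LAD 6 of the 7 were higher than in TA. In obese pigs 2 of the 7 were higher in PVAT, and 4 without pig 57. Apart from TCF21 the 7 genes included ALDH1A2, which makes retinoic acid, at 11.9-fold (10.59 ± 0.38 in PVAT, 7.02 ± 0.35 in TA). The keratins KRT8 and KRT19 were higher by 6.77-fold and by 2.30 on the log2 scale. KRT8 ran from 9.21 to 9.82 in PVAT and from 5.98 to 7.67 in TA. CLDN1, a tight junction protein, was higher by 4.67, with 10.63 to 11.58 in PVAT and 5.55 to 6.87 in TA.

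The coronary artery of the same pigs, which lies in this fat, gives one more level for each gene. Its comparison with the aorta shares the TA arrays, so levels are set side by side with no test between the comparisons. SFRP2, a secreted Wnt modulator and the gene lowest in PVAT relative to TA, had 6.70, 7.41, 7.10, 6.09 and 5.75 in PVAT and 13.15, 12.73, 13.25, 13.19 and 13.28 in TA, and averaged 6.38 ± 0.42 in LAD. ADRA1B, at 6.51 ± 0.55, was low in LAD too. HOXA3 was low in LAD on average but varied widely among the arrays, at 6.77 ± 2.09. TCF21, GATA4, TBX5 and MEIS2 averaged 10.13, 9.83, 8.10 and 11.14 in LAD, near or above their PVAT levels of 10.64, 8.52, 7.32 and 10.26 and well above 5.18, 5.14, 4.78 and 8.28 in TA. For these genes the means of the 2 heart-side tissues lay on one side and that of the aorta on the other. ITGA8, ELN, CNN1 and BGN showed the other arrangement, with 11.79, 12.24, 13.53 and 13.08 in LAD, close to TA and at least 2 log2 units above PVAT. WIF1, a Wnt inhibitor, was at 7.41 ± 1.21 in PVAT, 13.33 ± 0.19 in LAD and 11.22 ± 0.48 in TA. MBP was at 11.02 ± 0.75 in LAD, between 12.40 in PVAT and 5.85 in TA.

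**Figure D4:**
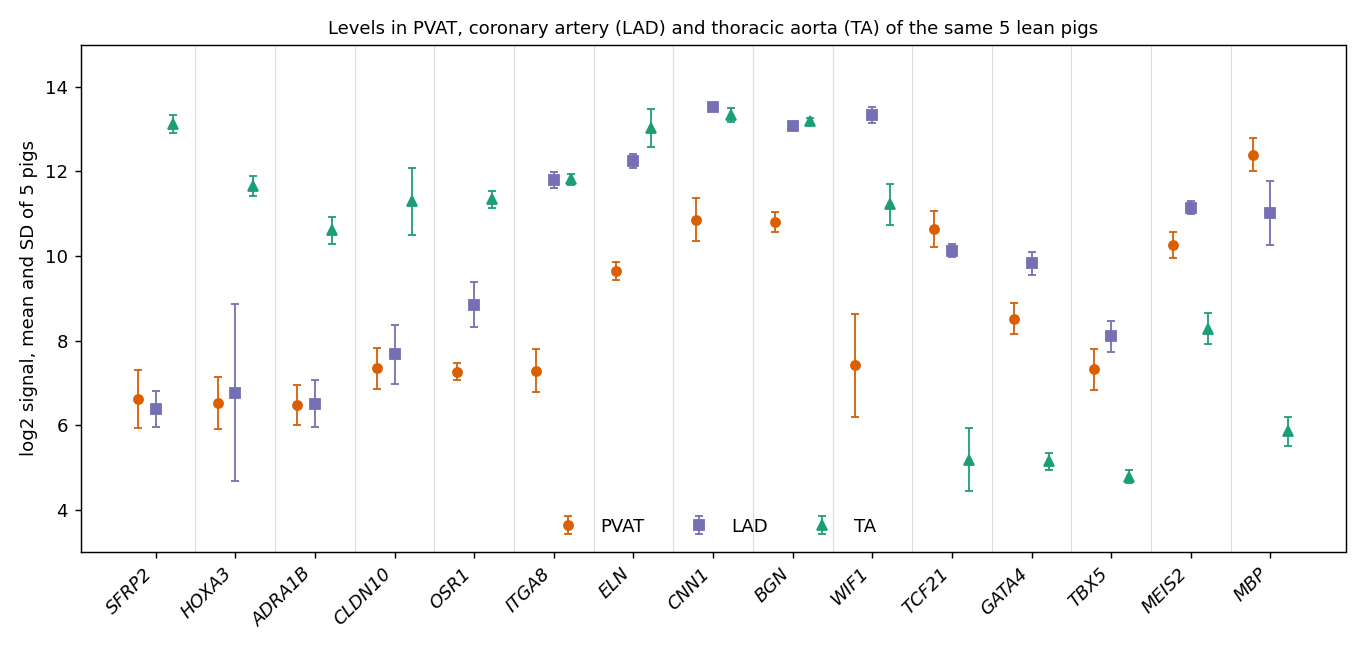
Mean log2 signal with SD (n = 5 pigs) of 15 genes in PVAT, LAD and TA. SFRP2, HOXA3 and ADRA1B are on average low in PVAT and LAD and high in TA, with a wide SD for HOXA3 in LAD. TCF21, GATA4 and TBX5 are the reverse, and ITGA8, ELN, CNN1 and BGN are low in PVAT and high in both arteries.

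Growth factor genes went both ways. Of 23 Wnt genes 4 were higher and 9 lower. Beside SFRP2 and WIF1, the Wnt amplifier RSPO3 was 9.96-fold lower and FRZB (FOSL2 or FRZB in the platform annotation) 3.41-fold lower, whereas SFRP4 was 4.35-fold higher and the transcription factor LEF1 was higher by 1.63. SFRP2 and SFRP4, of one family of secreted Wnt modulators, thus went opposite ways. Of 26 genes of TGF-beta and BMP signalling 7 were higher and 13 lower, and 8 were lower without pig 48. FST, follistatin, which binds activins, was 5.11-fold higher in PVAT (9.12 ± 0.56 in PVAT, 6.76 ± 0.49 in TA), against the lower activin subunit INHBB. The BMP receptors BMPR1A and BMPR1B were lower, at -1.43 and -1.62 and ID2, a BMP target, by -1.39. The insulin-like growth factors split, with IGF1 5.97-fold higher (11.48 ± 0.28 in PVAT, 8.90 ± 0.30 in TA) and IGF2 2.84-fold lower. The other 6 probe sets of IGF2 gave smaller differences, -0.11 to -0.75, of which the smallest did not pass, and the other 5 of IGF1 gave 0.07, which did not pass, to 2.71. Their receptor IGF1R was lower, at -1.43 (-0.80 to -1.83 with its other probe sets), and the binding protein IGFBP2 higher by 1.75. In that list 6 of 12 were higher and 4 lower.

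Endothelial genes were higher in PVAT, 17 of 19 with 1 lower and a median difference of 1.72, and 15 were higher with the 28S/18S covariate. VWF, von Willebrand factor, had 10.31, 10.29, 10.26, 10.52 and 10.95 in PVAT and 7.78, 7.33, 7.46, 7.05 and 8.23 in TA, 7.43-fold higher without overlap (limma adjusted p = 2.41e-05). The VEGF receptor KDR was 6.63-fold, the angiopoietin receptor TEK 5.58-fold, the junction cadherin CDH5 5.40-fold and PECAM1 4.89-fold higher. AQP1, the water channel, was the exception at -1.08 (12.25 ± 0.31 in PVAT, 13.33 ± 0.13 in TA). Genes of arterial endothelium and Notch signalling were mixed, 6 of 13 higher and 3 lower. The lower 3 were HEY2, a Notch target, at 4.76-fold, EFNB2, ephrin-B2, at 2.52-fold and the Notch ligand JAG1 at 2.30-fold, and the gap junction gene GJA4 was 3.25-fold higher, with its other probe set at 0.74. All 5 measured lymphatic genes were higher. PROX1, the master regulator of lymphatic identity, had 7.57, 8.39, 8.11, 8.96 and 7.74 in PVAT and 5.04, 3.76, 4.34, 4.02 and 6.26 in TA, and RELN was 12.6-fold higher.

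Immune genes were higher by smaller steps. Of 19 macrophage genes 15 were higher and 0 lower, at a median of 0.80, and 4 were higher with the 28S/18S covariate. CD163, a scavenger receptor of resident macrophages, had 9.67, 9.40, 10.11, 9.09 and 10.44 in PVAT and 9.01, 8.68, 8.77, 8.28 and 9.14 in TA. The tissues overlapped slightly, by the PVAT value of pig 80, while every pig was higher in PVAT (difference 0.97, SE 0.13). The other probe set of CD163 gave 1.96. The list mean in PVAT was highest in pigs 73 and 86, up to 10.19, against 9.37 to 9.55 in the others and 8.87 to 9.12 in TA. Of 12 antigen presentation genes 10 were higher and 1 lower, HLA-DRA (SLA-DRA in the platform annotation) by 1.40. All 3 measured mast cell genes were higher, the IgE receptor chain FCER1A by 2.61. HBB, the haemoglobin beta chain of red blood cells (OAZ1 in the platform annotation), was 13.1-fold higher, at 13.67 ± 0.23 in PVAT and 9.96 ± 0.32 in TA.

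Interferon response genes were higher in 16 of 22 cases with 1 lower. OAS1, which makes the activator of an antiviral RNase, averaged 9.39 ± 0.44 in PVAT and 6.78 ± 0.41 in TA, without overlap, 6.11-fold higher. Its within-pig differences all lay close to 2.61 (SE 0.08, limma adjusted p = 1.04e-05). IFIT3 was 5.44-fold higher and IFIT2 higher by 2.25, with its other probe sets at 1.88 and at 0.14, which did not pass. Of 24 complement and coagulation genes 17 were higher and 3 lower. C7, a terminal complement component, was higher by 4.18 (9.76 ± 0.55 in PVAT, 5.58 ± 0.44 in TA). The lower ones included the protease inhibitor A2M, 9.29-fold lower but at -0.80 on the log2 scale with its other probe set, and clusterin, CLU, at -0.76. Among 16 cytokines and chemokines 8 were higher and 0 lower, TNFSF10 by 2.52, the alarmin IL33 by 2.17 and CXCL14 by 1.91.

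Immediate early genes, which cells switch on fast under handling or stress, were lower in PVAT in 11 of 17 cases with 2 higher. FOS had 11.55, 10.28, 7.67, 8.89 and 8.23 in PVAT and 12.10, 12.68, 11.77, 11.59 and 10.62 in TA. The tissues overlapped by the PVAT value of pig 48, and all pigs were lower in PVAT (difference -2.43, SE 0.44, limma adjusted p = 0.00455). ATF3 was 9.48-fold and EGR1 5.01-fold lower. Of 32 antioxidant and glutathione genes 19 were higher and 5 lower, MGST1, a microsomal glutathione transferase, by 11.1-fold and the secreted peroxidase GPX3 by 10.9-fold, with GSTM3 2.85-fold lower. Cytosolic ribosomal protein genes did not separate the tissues on their brightest probe sets. Of 72 measured genes 0 were higher and 1 was lower, RPS23 by -0.21, a call lost without any 1 pig (adjusted p values of 0.077 to 0.109), while its other probe sets gave 0.76 and -1.0. The list mean was 13.37 to 13.51 in PVAT and 13.42 to 13.49 in TA. Some dimmer probe sets of these genes passed, in both directions. Examples were RPS21 at 1.64 and RPL11 at 1.01, and RPL9 at -0.81 and RPLP0 at -0.78.

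Several of the genes with the largest differences belong to none of these lists. CA3, a carbonic anhydrase abundant in fat and slow muscle, was higher by 6.38, with 13.14, 13.20, 13.39, 12.33 and 11.00 in PVAT and 7.52, 6.31, 5.48, 5.92 and 5.93 in TA. EEF1A2, the elongation factor form of muscle and neurons, was higher by 6.23, at 9.78 in PVAT of pig 73 and 12.06 to 12.86 in the others, although its other probe set read -0.06. The sorting receptor SORL1 was 18.5-fold higher and SCRG1, first described in scrapie-infected brain, 26.2-fold higher. On the aortic side, TES, testin, a focal adhesion protein, had 9.27, 8.79, 8.87, 8.76 and 8.96 in PVAT and 13.16, 13.46, 13.15, 12.59 and 13.10 in TA, 17.9-fold lower. CLDN10, a claudin, was 15.5-fold lower, PRDM6, a smooth muscle repressor, 14.8-fold lower, SLC7A11, the cystine transporter, 12.9-fold lower and NAV2, a neuron navigator gene, 12.6-fold lower, although the other probe set of NAV2 read -0.25 and did not pass. BDNF, the neurotrophin, was lower, at -3.90 (4.50 ± 0.54 in PVAT, 8.40 ± 0.95 in TA). The zinc finger gene ZNF385D was lower, at -4.84 (-2.67 with its other probe set), ceruloplasmin, CP, by -3.66, the secreted proteins PRSS35 and SCUBE3 by -3.77 and -3.08, and CCDC146 was 9.76-fold lower.

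The obese pigs provide the same tissue pair in other animals. In 5 obese pairs 835 probe sets (5.83%) were higher and 501 (3.50%) lower, and 1398 (9.76%) and 1609 (11.2%) without pig 57. Pig 57 was the only obese pig whose removal raised the passing count, from 1336 to 3007. Leaving out any other single obese pig lowered it, to 364 to 707. Elastic fibre genes lower in PVAT numbered 0 with pig 57 and 13 without it, and contractile smooth muscle genes 13 and 30. Other lists changed less. Respiratory chain genes higher in PVAT numbered 3 with pig 57 and 12 without it, against 53 in lean pigs. Fatty acid synthesis genes numbered 1 and 0, against 8, and macrophage genes 3 and 2, against 15. Endothelial genes numbered 11 and 12, against 17, and heart muscle genes 16 and 16, against 17. The elastic fibre list mean ran from 8.36 to 11.19 over the obese TA arrays and from 10.75 to 11.22 over the lean ones. Why pig 57 differed was not tested. Of the 1164 probe sets higher by at least 1 log2 unit in lean pigs, 1151 (98.9%) had the same sign in obese pigs, at a median difference of 1.64 in lean and 1.39 in obese pigs, and 641 passed there. Of the 956 lower ones 951 (99.5%) kept the sign, at medians of -1.49 in lean and -1.12 in obese pigs, and 313 passed, or 832 without pig 57. The lists of at least 1 log2 unit shared 587 higher probe sets, which are 50.4% of the lean and 90.7% of the obese list, and 261 lower ones, 27.3% and 93.9%. Without pig 57 the shared probe sets were 795 higher, 68.3% of the lean and 92.9% of the obese list, and 737 lower, 77.1% and 91.1%, and the obese medians were 1.44 and -1.41. The probe sets behind these medians were chosen by their lean values, which by itself favours larger lean differences. The share with the same sign over all probe sets was not counted.

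The tissue difference itself was not shown to depend on diet. In the limma test of the lean minus the obese difference 0 of 14327 probe sets passed (0.0%), the smallest adjusted p was 0.992, and 399 (2.78%) had an unadjusted p under 0.05. The 5 genes with the smallest p in that test were SMPDL3A, IGFBP3, ME1, FST and THBS1. SMPDL3A, a phosphodiesterase related to acid sphingomyelinase, differed by 1.95 in lean pigs, with 8.29, 7.73, 8.74, 7.74 and 7.70 in PVAT and 6.50, 6.11, 5.98, 5.90 and 5.96 in TA, and by -0.94 in obese pigs (unadjusted p = 0.000507). ME1, the malic enzyme that supplies NADPH for fatty acid synthesis, differed by 1.41 in lean and -0.81 in obese pigs, and IGFBP3 by 0.83 and -0.25. FST differed by 2.35 in lean and 1.52 in obese pigs and THBS1 by 2.16 and 0.82. For comparison, TNNT2 differed by 7.09 and 8.19, MBP by 6.55 and 5.44, and SFRP2 by -6.51 and -6.39 in lean and obese pigs.

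**Figure D5:**
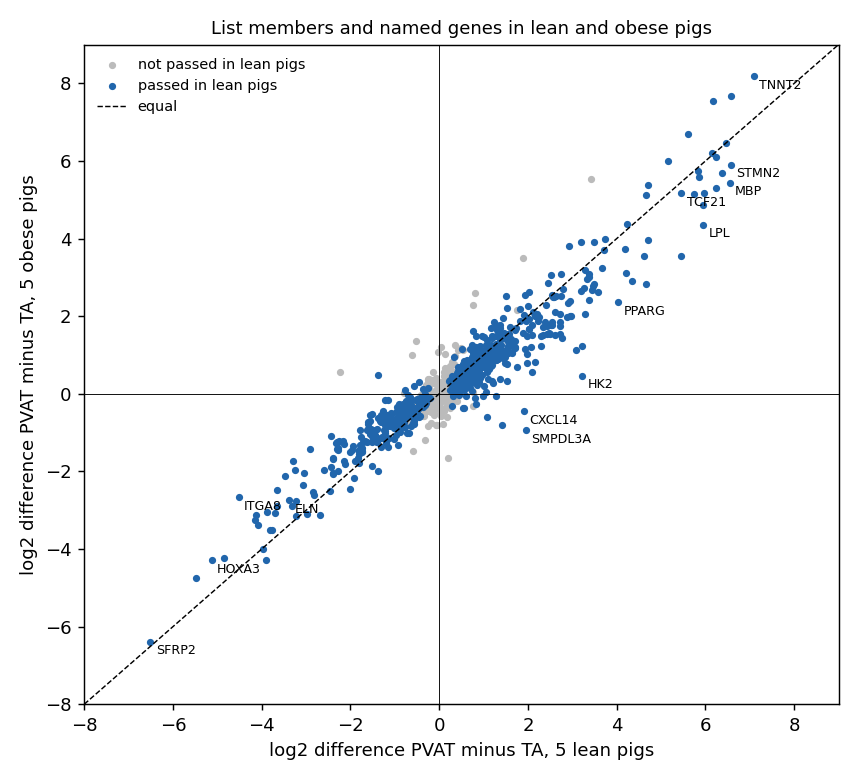
Log2 difference PVAT minus TA in 5 lean (horizontal) and 5 obese pigs (vertical) for the list members and named genes, blue where passed in lean pigs. Most points lie near the dashed line of equality, many of them nearer to 0 in obese than in lean pigs, and SMPDL3A, at 1.95 in lean and -0.94 in obese pigs, lies in the opposite quadrant. The obese values include pig 57. Over the probe sets lower by at least 1 log2 unit in lean pigs, the lean median was -1.49. The obese median was -1.12 with pig 57 and -1.41 without it. Those probe sets, like some of the named genes, were chosen by their lean values, which by itself favours larger lean differences.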

How the data were processed

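The arrays were Affymetrix porcine genome arrays. Per the submitters' processing notes the authors used the affy package for R. The method of background correction and normalization and the version are not given in the sources used here, and the deposited values are log2 signals per probe set. In the deposited table each of the 14327 probe sets reached 6.64 in at least 11 of 32 arrays. Gene symbols are the deposited human symbols (11602 probe sets), or else the 1 symbol of the platform annotation (698 more), after 28 symbols turned into dates were set aside. For 909 probe sets the 2 sources differ; both names stand beside such a gene.

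limma 3.58.1 in R 4.3.3 was fitted to the 10 lean PVAT and TA arrays with the pig as a fixed block (lmFit and eBayes, two-sided, Benjamini-Hochberg over all 14327 probe sets, passed at an adjusted p under 0.05). All arrays share 1 microarray date, and both arrays of a pig share its sacrifice date. The numbers pair the samples because both tissues came from the same animal. Deviations from the tissue means correlated by 0.089 to 0.282 within a pig. Genes were named by rules: up to 15 each way by mean and by smallest within-pig difference, up to 4 each way in each of 53 lists with the members against the majority, a set of fixed genes, and the 5 smallest p of the diet test. Genes named outside these rules were chosen after their values were seen; they are ATP5B, CS, CYR61, ERBB3, FRZB, HLA-DRA, ITPR1, MYOCD, PLIN2, SLC25A4, SLC2A4 and TBX5. The genes, lists and tests were chosen with earlier results of these data known. Other fits left out each pig, the block or dim probe sets, renormalized the arrays, or added the 28S/18S ratio, pig 63 or all arrays. The fit was tested on simulated data. Some genes that the rules name are not reported here. No sequences or genome positions are printed.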

Additional observations from a re-analysis of the deposited data

Results flagged for a closer look

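Of 394 groups of 5 arrays tested (the named genes and 11 marker lists in PVAT and in TA), 24 held 1 array far from the other 4; chance gives about 1 in 20. In PVAT, pig 73 was the low array for CKM at 5.42 (11.40 to 13.57 in the others), for MYL2 at 5.71 (12.41 to 14.14) and for EEF1A2 at 9.78 (12.06 to 12.86), all 3 of them muscle genes. Pig 86 was low for ECI1 at 10.23 (11.08 to 11.40) and VEGFA at 10.55 (10.83 to 10.88) and high for DDAH1 at 10.03 (8.64 to 8.96). Pig 80 was low for the interferon gene IFIT2 at 7.69 (8.23 to 8.40) and the cytokine TNFSF10 at 6.34 (7.77 to 8.04). Pig 56 was low for CDH5 at 10.68 and high for THBS1 at 10.95 (9.58 to 9.98) and CCND2 at 10.81, and pig 48 was low for CP at 3.62 (4.61 to 4.83).

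In TA, pig 56 was the low array for IFIT3 at 6.13 (7.23 to 7.34), IL33 at 5.35 (6.45 to 6.77), PECAM1 at 8.58 (9.21 to 9.41), SFRP2 at 12.73 (13.15 to 13.28) and STMN2 at 4.09 (4.88 to 5.06), and for the mean of the nerve and Schwann cell list at 7.4 (7.59 to 7.67). Pig 86 was low for BMPR1A at 9.58, KCNMA1 at 10.95 and SCUBE3 at 9.14. Pig 80 was high for ID2 at 13.59, pig 73 high for MFAP5 at 12.19, and pig 48 low for TBX5 at 4.52. The part that single aortic or fat samples play in these values was not tested.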

How the results depend on the processing

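Of the 178 named genes that passed, none changed direction under the alternatives run. With the 28S/18S ratio as a covariate 1245 probe sets were higher and 1402 lower in PVAT, and 27 named genes lost their call; in the 3 pigs of 1 sacrifice group the counts were 1373 and 1982, and 20 were lost. Both leave fewer degrees of freedom. Leaving out the dimmest 30% of probe sets removed tested probe sets, and 733 were higher by at least 1 log2 unit. Without the pairing by pig (no replicate block) 3171 were higher and 3801 lower, and 2 named genes lost their call; in obese pigs that fit passed 2359 probe sets against 1336 with the block, and the cause was not tested. Leaving out single lean pigs gave 2406 to 3290 higher and 3045 to 3546 lower probe sets and cost 4 to 8 named calls. Leaving out single obese pigs gave 364 to 3007 passing probe sets, so the obese count rests on few animals. The other alternatives (pig 63 included, all 32 arrays, quantile normalization, median centring, a mean-variance trend, a floor at 6.64) kept the lean counts within 1.5 times and cost at most 5 named calls. In the test of lean against obese differences 0 probe sets passed under each alternative run. Signals near 6.64 carry no detection call, which limits what can be said of low genes.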

Other observations

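Fibroblast and preadipocyte genes were higher in PVAT in 7 of 12 cases and lower in 1, against 24.6% and 25.4% of all genes. FAP, a membrane protease of activated fibroblasts, averaged 11.42 ± 0.46 in PVAT and 8.85 ± 0.79 in TA (SD, n = 5 each), 5.93-fold higher, and DPT, dermatopontin, was 3.82-fold higher. PDGFRA, the growth factor receptor of fibroblasts and fat precursors, was 2.25-fold higher. Genes used as pericyte markers lay mostly on the aortic side, 6 of 10 lower and 1 higher. CSPG4, the NG2 proteoglycan that smooth muscle shares, was 5.27-fold lower (8.15 ± 0.37 in PVAT, 10.55 ± 0.23 in TA), and HIGD1B was the 1 higher member, at 1.71.

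Glycolysis and hypoxia genes split, with 10 of 23 higher and 5 lower; 2 were lower without pig 48 and 3 without pig 73. DDIT4, a stress-induced inhibitor of the kinase mTOR, was 5.66-fold higher, at 12.23 ± 0.32 in PVAT and 9.73 ± 0.38 in TA. HIF1A, the hypoxia-inducible factor itself, was 2.29-fold lower (11.07 ± 0.10 in PVAT, 12.27 ± 0.17 in TA). Of 22 genes of branched-chain amino acid breakdown 13 were higher and 0 lower, with 7 or 8 higher without pig 48, 56 or 73, and the ketone-using enzyme OXCT1 led at 3.05-fold (0.99 on the log2 scale with its other probe set). Of 13 circadian genes 0 were higher and 6 lower, HLF, a clock output factor, by 2.83-fold. Of 22 cell cycle genes 1 was higher and 9 lower, the replication helicase subunit MCM3 by 2.23-fold and the cyclin CCND2 by 1.98-fold.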
